A study of Mus musculus with 2 samples.

Results

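The TRIM family of ubiquitin ligases was followed through gastrocnemius, the large calf muscle, in 2 male B6CASTF1/J mice aged 36 days, the F1 cross of C57BL/6 with CAST. The members were the protein-coding genes whose symbol is Trim, a number and at most 1 letter, without the 4 muscle genes Trim54, Trim55, Trim63 and Trim72. This gave 64 members of the 21866 protein-coding genes and 55536 Ensembl genes listed. Total RNA was sequenced from 300 ng per animal, with ERCC spike-in RNAs added, and the labels number the libraries as biological replicates 1 and 2 of 1 group. Both libraries carry the same donor entry in the labels, so that the spread between them is that of 2 labelled biosamples and may be partly technical. With 1 group of 2 animals there is no contrast and no p-value, and each comparison between the animals is a description. Values are not split by parental allele, and how well reads of the CAST allele matched the reference was not tested.

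TRIM proteins share an amino-terminal tripartite motif: a RING finger, which recruits a ubiquitin-loaded E2 enzyme, then B-box zinc fingers and a coiled coil through which the proteins pair. What follows the coiled coil differs between members and reads the target. It can be a PRY-SPRY domain, as in the many antiviral members, a PHD finger with a bromodomain, as in the chromatin co-regulators, NHL or filamin repeats, or a COS box that binds microtubules. In skeletal muscle the family is best known for the MuRF proteins, which bind the sarcomere and which the rule leaves out. A further muscle link is Trim32, whose human counterpart is mutated in a limb-girdle muscular dystrophy.

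The libraries held 36952277 (replicate 1) and 38754338 (replicate 2) expected counts, where an expected count is an estimated number of reads of a gene and need not be whole. The markers of the labelled tissue were abundant: the muscle fibre genes Acta1, Ckm, Myh4, Mylpf and Tnnt3 summed to 86136 ± 3381 TPM (SD, n = 2), where TPM is a length-scaled level with a fixed total per library. The neuron markers summed to 0.20 ± 0.042 TPM, with Snap25 listed at 0, and the T and B cell markers to 0.145 ± 0.049 TPM. The libraries were not alike in other cell types. The Schwann cell markers summed to 451.69 TPM in replicate 1 and 103.19 in replicate 2, the fibroblast markers to 1361 and 678, and the macrophage markers to 26.66 and 16.26. The adipocyte markers went the other way, at 26.69 and 46.48. In bulk RNA, fewer cells of a type and less RNA per cell cannot be told apart.

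The sequences shown first are those that make some member values uncertain. The genes Trim5, Trim12c, Trim30a, Trim30d, Trim34a and Trim34b lie in 1 cluster on chromosome 7 and belong to pairs of close copies, so that reads can match either copy. A read from the coding sequence can be assigned to a copy only where the copies differ. Differences in the untranslated parts can also separate copies and were not compared. Shown are the 60-base windows of the aligned coding sequences that were chosen to show coding differences. They were read from the GENCODE M21 transcripts of mm10, 5′ to 3′ and counted from the first base of the start codon. Capitals mark the bases that differ within a pair. Trim12c and Trim5, whose translated proteins were 94.4% identical, differ at 10 of the 60 bases from 940 to 999:
Trim12c: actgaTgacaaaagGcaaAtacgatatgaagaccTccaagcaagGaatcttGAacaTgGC
Trim5: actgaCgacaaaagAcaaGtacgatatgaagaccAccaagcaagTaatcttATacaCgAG
Trim34a and Trim34b, 97.9% identical, differ at 4 bases from 93 to 152:
Trim34a: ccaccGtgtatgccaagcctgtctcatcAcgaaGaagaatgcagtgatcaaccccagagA
Trim34b: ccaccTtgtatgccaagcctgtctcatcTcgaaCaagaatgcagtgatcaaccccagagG
Trim30a and Trim30d, 82.5% identical, differ at 16 bases from 726 to 785:
Trim30a: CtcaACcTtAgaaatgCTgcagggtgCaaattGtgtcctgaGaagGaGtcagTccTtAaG
Trim30d: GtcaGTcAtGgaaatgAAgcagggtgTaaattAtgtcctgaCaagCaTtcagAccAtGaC

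Of all possible 100-base windows in the coding sequence, 36.6% were shared letter for letter by Trim34a and Trim34b, 14.9% by Trim12c and Trim5 and 12.7% by Trim30a and Trim30d. A further 3 close copies, Trim43a, Trim43b and Trim43c on chromosome 9, had protein identities of 92.4 to 95.7%. The levels of these 9 genes depend on how reads were divided between the copies and are given as uncertain. Identity was counted over the full alignment, so a member with a short coding sequence could not reach 80% with a longer copy. This holds for Trim12a and Trim30b, with 891 and 609 coding bases against 1491 in Trim12c. The expected counts of Trim12a, 43.23 and 49.31, were not whole, so its level is uncertain as well. Those of Trim24, 1387.9 and 1575.81, and of Trim17, 13.65 and 7.51, were not whole either. The levels of Trim24 and Trim17 thus also depend in part on how reads were divided.

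Most of the family was listed at 0 or low in this muscle, and a few members carried most of its RNA. With detection set at 1 TPM or more in both animals, 25 of the 64 members were detected, 39.1%, against 45.9% of all protein-coding genes. By mean TPM, 12 members reached 5 TPM, 13 lay between 1 and 5, 24 were above 0 but under 1, and 15 were listed at 0 in both animals. The members together held 210.33 TPM in replicate 1 and 206.54 in replicate 2, or 208 ± 2.68, which was 0.0208% of all TPM. The 4 muscle genes outside the rule held more, 371 ± 2.57 TPM. The median detected member stood at 4.08 TPM, below the 7.01 TPM of the median detected protein-coding gene, and 9 members were above the latter level.

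**Figure D1:**
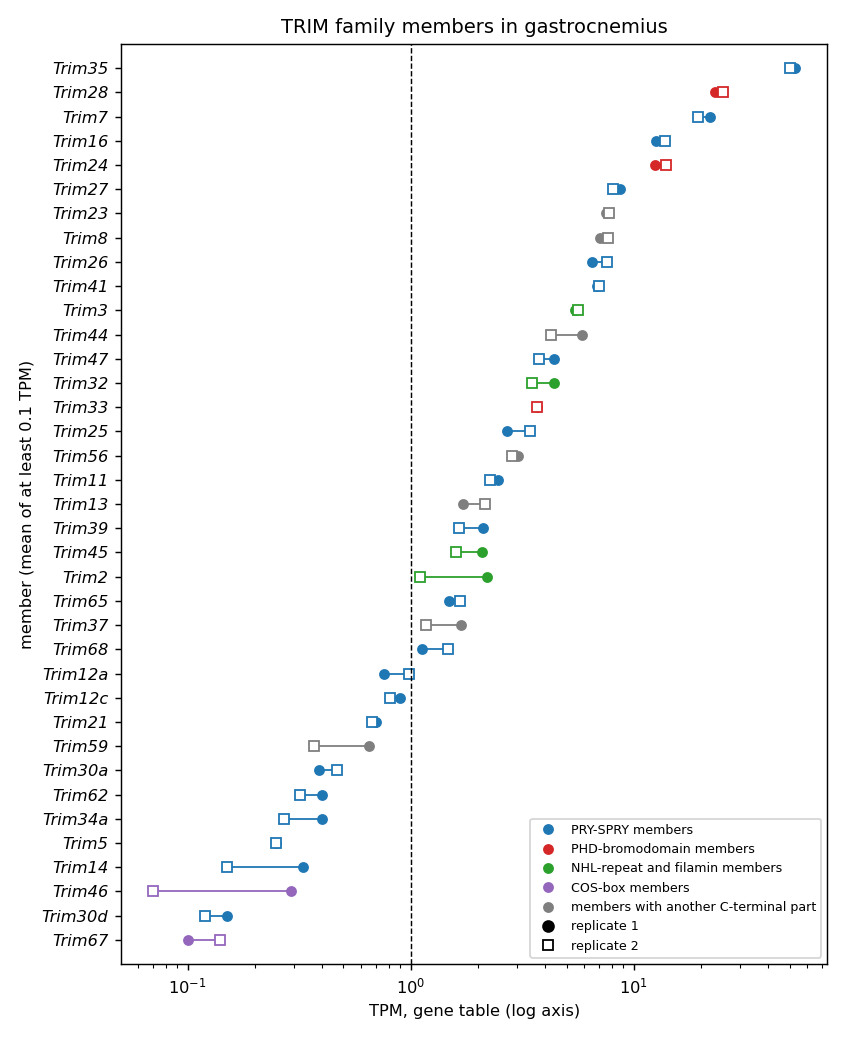
TPM of the members with a mean of at least 0.1 TPM, in order of the mean, on a log axis, with a filled circle for replicate 1, an open square for replicate 2 and colour for the carboxy-terminal part. The dashed line is 1 TPM. Trim35 stands alone at 53.09 and 50.44 TPM, and the 25 detected members lie right of the line in both animals.

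The top 5 members, Trim35, Trim28, Trim7, Trim16 and Trim24, held 59.1% ± 0.634 of the family's TPM, and the top 10 held 76.99% ± 1.35. Trim35 (chromosome 14, 66297031-66311424) alone held 24.8% ± 0.580. In the order of levels, Trim35 was clear of all others in both animals. Trim28 lay above Trim7 in each animal, but the deposited credibility intervals of their TPM, which cover counting and the assignment of reads, overlapped in replicate 1 and did not in replicate 2. Trim16 and Trim24 differed by less than the spread between the animals, and so did Trim23 and Trim8.

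The PRY-SPRY members formed the largest group, 37 genes, and held 60.9% of the family's TPM, or 127 ± 2.38 TPM. Of these, 12 were detected and 8 were listed at 0. Members were assigned to this and the other groups by lists of symbols, and no domain was searched in their sequences. Trim12a, Trim15 and Trim30b, listed here, had 891, 876 and 609 coding bases, against 1491 in Trim12c. Trim35, first described through its gene's part in blood cell lineages, had 53.09 TPM in replicate 1 and 50.44 in replicate 2, from 5770 and 5522 expected counts. It ranked 848 among all protein-coding genes. Trim7 (chromosome 11, 48826140-48852209), which binds glycogenin, the primer of glycogen synthesis, had 22.03 and 19.52 TPM. Trim16 (chromosome 11, 62820231-62850808), which lacks a RING finger and acts in the clearance of damaged lysosomes, had 12.57 and 13.85 TPM. Trim35 lay above Trim7 and Trim7 above Trim16 in both animals, with no overlap of their values in the gene table. In the second transcript table, another quantification of the same libraries, Trim7 had 25.30 and 21.11 TPM and Trim16 19.94 and 21.88. There the values of these 2 genes overlapped, and Trim16 was the higher in replicate 2.

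The next PRY-SPRY members were at intermediate levels. Trim27, also known as RFP, had 8.71 and 8.04 TPM. Trim26, an antiviral member of the major histocompatibility region, had 6.51 and 7.63 TPM. Trim41, which ubiquitinates protein kinase C, had 6.88 and 6.99 TPM. The values of Trim26 and Trim41 overlapped, and Trim27 lay above both by TPM. The credibility intervals of Trim27 overlapped those of Trim26 and Trim41 in both animals, so this order is not settled. Trim68 was the lowest detected PRY-SPRY member, at 1.12 and 1.47 TPM, and had the largest log2 ratio between the animals among the detected members of the group, 0.36. All ratios set replicate 2 against replicate 1 as a difference of log2(TPM + 0.1), so those of low genes come out too small.

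The PHD-bromodomain members regulate transcription on chromatin, and 3 of the 4 were detected, with 41.0 ± 2.49 TPM in all. Trim28 (chromosome 7, 12999114-13031035), also called KAP1, is the scaffold through which zinc-finger repressors silence retroelements, and had 23.15 and 25.18 TPM. Trim24 (chromosome 6, 37870811-37966296), a co-regulator of nuclear receptors, had 12.42 and 13.90 TPM. Trim33, a nuclear partner of the Smad proteins, had 3.67 and 3.68 TPM. The order Trim28, Trim24, Trim33 held in both animals without overlap, while the fourth gene, Trim66, was near 0 at 0.03 TPM in each.

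All 7 listed partners of these proteins were detected. They are the histone methyltransferase Setdb1, the heterochromatin proteins Cbx1, Cbx3 and Cbx5, and Smad2, Smad3 and Smad4. The highest was Smad3, at 24.29 and 23.07 TPM, and the lowest was Setdb1, at 3.81 and 3.86 TPM. Smad2 had the largest log2 ratio of the 7, at 4.20 and 3.76 TPM. None of the 7 was past the criteria for a difference between the animals defined further on.

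Of the NHL-repeat and filamin members 4 of 5 were detected, with 13.0 ± 1.65 TPM in all. Trim3, a member best known from neurons, had 5.48 and 5.63 TPM. Trim32 had 4.38 and 3.49 TPM, and the filamin-repeat gene Trim45 had 2.10 and 1.59. Trim2, which ubiquitinates the neurofilament light chain and is mutated in an inherited axonal neuropathy, had 2.19 TPM in replicate 1 and 1.10 in replicate 2. Trim3 lay above the others in both animals, and Trim2 stood out by its gap between the animals. The credibility intervals of Trim3 and Trim32 overlapped in replicate 1 and did not in replicate 2. Trim71, known from stem cells, was listed at 0.

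The 14 members with another carboxy-terminal part, or none, held 27.0 ± 0.919 TPM, with 6 detected. Trim23, which carries an ARF GTPase domain, had 7.49 and 7.75 TPM. Trim8, known from cytokine signalling, had 7.08 and 7.69 TPM. Trim44, which lacks a RING finger, had 5.89 and 4.28 TPM. The values of Trim23 and Trim8 overlapped, and Trim44 lay below both in each animal. The credibility interval of Trim44 overlapped theirs in replicate 1 and did not in replicate 2. The lowest detected of them was Trim37, whose human counterpart is mutated in a growth disorder, at 1.68 and 1.17 TPM. Trim37 was also the single member, among those at 0.5 TPM or more, whose mean differed by over 2-fold between quantifications, 1.43 TPM in the gene table and 2.87 in the second transcript table.

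The COS-box group, microtubule-binding members known from neurons and the midline, was near 0. The 4 genes found, Trim9, Trim36, Trim46 and Trim67, summed to 0.445 ± 0.219 TPM and none was detected. Their relatives Mid1 and Mid2, which carry other symbols and are no members, were detected, at 2.88 and 2.93 TPM for Mid1 and 2.34 and 2.17 for Mid2. Both thus stood above the 4 COS-box members together. Among other TRIM proteins under different symbols, Cmya5, a large muscle protein, had 348.31 and 385.17 TPM, Pml had 1.46 and 1.74, and Mefv was listed at 0.

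Members on a list of those known chiefly from other tissues were at or near 0 as a group. The list held 16 genes of neurons, the erythroid line, epithelia, testis and the early embryo, of which 0 were detected and 9 were listed at 0, and it summed to 0.51 ± 0.141 TPM. The list was chosen with earlier results of these data known. It leaves out Trim3, best known from neurons, at 5.48 and 5.63 TPM. It also leaves out Trim2, linked to an axonal neuropathy, at 2.19 and 1.10 TPM. The highest gene on it was the neuronal gene Trim46, at 0.29 and 0.07 TPM from 16 and 7 expected counts. The erythroid genes Trim10 and Trim58 had 1 read between them, although the red blood cell markers summed to 231 ± 26.7 TPM. Over all members, those listed at 0 in both animals were Trim15, Trim31, Trim38, Trim40, Trim42, Trim43c, Trim50, Trim52, Trim58, Trim60, Trim61, Trim69, Trim71, Trim75 and Trim80. In the second transcript table Trim52 had 0.312 and 0 TPM and Trim43c 0.201 and 0.129, while the rest were at 0 there too. A count of 0 allows up to 3 reads, which is 0.0812 CPM (counts scaled to the library) in replicate 1 and 0.0774 in replicate 2, for counting error only.

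The ubiquitin machinery that the RING finger works with was present throughout. All 18 listed genes, which are ubiquitin-activating E1 enzymes, E2 enzymes and ubiquitin genes, were detected, with a median of 46.1 TPM. The lowest was the E1 gene Uba6, at 1.80 and 1.56 TPM. Ube2w, an E2 that ubiquitinates amino termini, had the largest log2 ratio of the list, -0.47, with 4.68 and 3.34 TPM, but 0.04 in the second transcript table, where the largest was -0.38 for the ubiquitin gene Rps27a. None of the 18 was past the criteria for a difference between the animals.

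Interferon-linked members had low levels. Of the 17 listed, 4 were detected, Trim26, Trim25, Trim56 and Trim65, and all 17 summed to 18.8 ± 1.30 TPM. By the second transcript table, 7 of 17 were detected, with Trim12a, Trim12c and Trim21 added. TPM mostly ran higher there, with a median ratio to the gene table of 1.47 over protein-coding genes. The share of all protein-coding genes detected in that table is not given here. Trim25, which acts with the RNA sensor RIG-I, had 2.70 and 3.44 TPM. Trim56, linked to the DNA-sensing STING pathway, had 3.02 and 2.85, and Trim65, which acts on the RNA sensor MDA5, had 1.48 and 1.67. The cytosolic antibody receptor Trim21 was just under the threshold at 0.70 and 0.67 TPM.

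The pathway itself had its receptors and kinases, and low levels of its induced genes. Of 20 listed genes, 10 were detected. The kinase Jak1 was the highest, at 53.77 and 44.12 TPM, and the effector Mx1 was the lowest, at 0.20 in each animal. The induced genes Ifit1, Ifit3, Isg15, Rsad2 and Mx1 were under 1 TPM in both animals, and Irf7 and Oasl2 were so in replicate 1, at 0.46 and 0.57, but not in replicate 2, at 1.03 and 1.11. Several induced genes were higher in replicate 2. Their log2 ratios were 1.44 for Ifit3, 1.06 for Rsad2, 1.01 for Irf7, 0.87 for Isg15, 0.85 for Oasl2 and 0.77 for Irf1. The mean expected counts of Ifit3, Rsad2, Irf7, Isg15 and Oasl2 were below the minimum of the criteria. These genes could therefore not pass the criteria at any ratio. Irf1 had enough counts, and its ratio was under 2-fold. The ratio of Rsad2 was -0.04 in the second transcript table, while those of Ifit3, Irf7, Isg15, Oasl2 and Irf1 stayed above 0. Tmem173, which encodes STING, had the largest log2 ratio among those at 1 TPM or more, with 1.84 and 0.78 TPM from 69 and 32 expected counts, and its credibility intervals overlapped.

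The promoters of the interferon-linked members were searched for the interferon-stimulated response element core, GAAA followed after any 2 bases by GAAA, on both strands of the 300 bases from 250 before to 50 after the gene start (RefSeq, GRCm38.p6). No other motif was searched. Windows were found for 50 of the 64 members. The motif was present in 8 of 15 interferon-linked members with a window (53.3%), in 1 of the 35 other members, Trim2, and in 3.99% of all 27025 genes. The 8 were Trim5, Trim12a, Trim12c, Trim21, Trim26, Trim30a, Trim30d and Trim34a. They are not independent, since 6 of them lie in the chromosome 7 cluster and several are copies of each other. The match is a description of the letters and not a measured site.

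Where the motif lay before the start, the stretch around it is shown 5′ to 3′ on the strand of the gene, with the motif in capitals, read here as its reverse complement. All but the last of these genes were under 1 TPM:
Trim12c, chr7:104353363-104353449, minus strand: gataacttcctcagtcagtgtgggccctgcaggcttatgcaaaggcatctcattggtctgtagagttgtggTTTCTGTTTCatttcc
Trim5, chr7:104288107-104288206, minus strand: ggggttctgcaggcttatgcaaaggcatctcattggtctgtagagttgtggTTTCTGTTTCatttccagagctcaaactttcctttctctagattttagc
Trim30a, chr7:104465194-104465293, minus strand: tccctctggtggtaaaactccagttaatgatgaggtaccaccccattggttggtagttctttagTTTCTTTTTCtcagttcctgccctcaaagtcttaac
Trim30d, chr7:104507850-104507949, minus strand: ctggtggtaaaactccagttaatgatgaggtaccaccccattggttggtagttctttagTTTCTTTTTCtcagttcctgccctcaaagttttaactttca
Trim26, chr17:36836941-36837040, plus strand: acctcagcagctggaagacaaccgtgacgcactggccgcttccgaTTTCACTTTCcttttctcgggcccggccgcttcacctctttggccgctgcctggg

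Trim12c and Trim5 hold the same 10 letters, and so do Trim30a and Trim30d, with the motif starting at -29, -49, -36 and -41 from the gene start. Trim26 holds a different version, starting at -160, and a second match 6 bases further on, TTTCCTTTTC. The 4 genes of the cluster had means of 0.86 (Trim12c), 0.25 (Trim5), 0.43 (Trim30a) and 0.135 TPM (Trim30d), while Trim26 had 7.07. The motif was thus found beside the highest interferon-linked level and beside levels under 1 TPM.

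Promoters of detected members were also richer in CpG. The ratio of observed to expected CpG in the same windows had a median of 0.71 in the 18 detected members with a window and 0.19 in the 32 not detected. The corresponding medians over protein-coding genes were 0.77 for 7912 detected and 0.29 for 8603 not detected, in the same order as in the members. A ratio of 0.6 or more was found in 13 of the 18 and in 5 of the 32, which were Trim9, Trim59, Trim62, Trim67 and Trim71. These are 72.2% and 15.6%, against 74.6% and 24.9% of the protein-coding genes. The highly expressed Trim7 and Trim24 had low ratios among detected members, 0.46 and 0.48. No detected member with a window was below 0.42 (Trim2), and the Trim30a window held no CpG at all. The other detected members, Trim35 and Trim16 among them, had no window and were not measured.

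**Figure D2:**
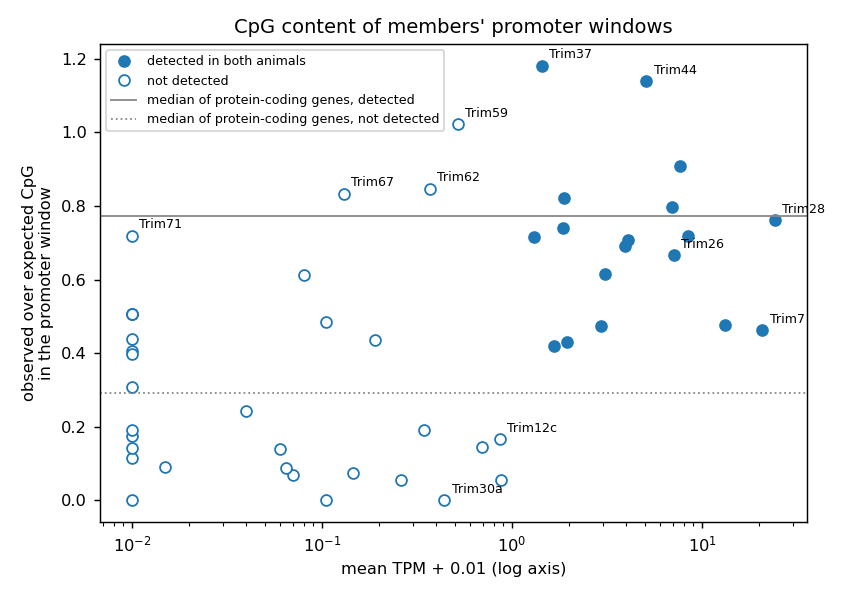
Observed over expected CpG in the 300-base promoter window against mean TPM + 0.01 on a log axis for the 50 members with a window, filled where detected in both animals. Grey lines are the medians over protein-coding genes, 0.77 where detected and 0.29 where not. All filled points lie at 0.42 or above, and most open points lie below 0.6.

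The members lie partly in clusters, taken as members whose starts are within 200000 bases of the next. There were 7 clusters with 26 members, of which 7 were detected, against 18 of the 38 members outside clusters. The largest was that of 10 genes on chromosome 7 (mm10, 104218793-104507849), Trim6, Trim34a, Trim5, Trim12a, Trim34b, Trim12c, Trim30b, Trim30c, Trim30a and Trim30d. The cluster summed to 3.09 and 3.26 TPM, less than Trim44 alone, and none of the 10 was detected. In the second transcript table, where TPM mostly ran higher, 2 of the 10 were detected. They were Trim12a at 1.72 and 1.43 TPM and Trim12c at 1.24 and 1.06. In the gene table these 2 were the highest of the cluster, next below the detection threshold. Trim12a had 0.76 and 0.98 TPM there, and Trim12c had 0.90 and 0.81.

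Within the close pairs 1 copy took more of the reads in each case. Trim12c had 103.90 and 93.59 expected counts against 28.01 and 28.09 for Trim5. Trim34a had 31.62 and 21 against 1.38 and 8.00 for Trim34b, and Trim30a had 37.86 and 38.42 against 12.14 and 10.58 for Trim30d. The second transcript table gave the same order for these pairs, with means of 1.15 TPM for Trim12c and 0.32 for Trim5, 0.44 for Trim34a and 0.12 for Trim34b, and 0.79 for Trim30a and 0.20 for Trim30d. Trim43a had 0 and 6.65 expected counts, Trim43b 2.00 and 1.35, and Trim43c none in either. In the second table Trim43c was the highest of these 3, with a mean of 0.165 TPM against 0.097 for Trim43a and 0.066 for Trim43b.

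The other clusters were of 2 to 5 members. Trim7 and Trim41 lie beside each other on chromosome 11 and were both detected. On chromosome 17 (36837134-36910214) Trim26 was detected, while its neighbours Trim10, Trim15, Trim31 and Trim40 had 1 read in all. On chromosome 8 (64980884-65018584) Trim60, Trim61 and Trim75 were listed at 0. Trim47 and Trim65 on chromosome 11 share 225 exon bases on 1 strand, so that their levels of 4.38 and 3.77 TPM for Trim47 and of 1.48 and 1.67 for Trim65 rest on how reads there were divided. Trim16 shares 237 exon bases with Fbxw10 on the same strand, and Trim7 shares 491, 6.46% of its exon bases, with the antisense gene Gm16170 on the other.

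By the mean of the animals, the 12 members at 5 TPM or more were led by a coding transcript in both transcript tables. In replicate 2 of the first table, however, the retained-intron form Trim28-203 led at 40.2% against 36.4% for Trim28-201, and the processed transcript Trim26-209 at 30.3% against 22.7% for Trim26-201. Trim35-201 held 94.9% ± 0.430 of the gene's TPM, Trim8-201 97.8% ± 0.035 and Trim44-201 98.8% ± 1.68 in the first transcript table. Trim7 was divided mainly between 2 coding forms, Trim7-202 at 35.5% ± 0.00059 and Trim7-201 at 34.7% ± 0.340. A short form of coding type, Trim7-203 with 298 bases, held 20.9% ± 0.284 there but 0 in the second table. The leading form was the same in both tables for 9 of the 12. The exceptions were Trim3, Trim16 and Trim26, whose forms could not be separated stably. In Trim16, for example, Trim16-201 held 18.7% in replicate 1 and 53.0% in replicate 2.

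By TPM, Trim28 had the largest share of noncoding forms, that is retained-intron, processed and nonsense-mediated decay transcripts, among these 12. They held 58.7% ± 7.02 of its TPM in the first table and 55.8% ± 6.45 in the second, against medians of 8.26% and 13.1% over the 12 genes. Counted in reads, the same forms held 20.5% ± 4.69 and 15.1% ± 2.13, below those of Trim26, at 27.0% ± 17.4 and 28.6% ± 10.1. TPM divides by effective length, and the leading noncoding form, Trim28-203, is 565 bases long against 3245 for the coding Trim28-201. Trim28-201 itself had 10.71 and 9.15 TPM, below the whole-gene value and also below the TPM of Trim35-201. Trim3 came next by TPM, at 34.2% ± 2.02, but held 9.79% ± 1.07 by reads, below Trim26 and Trim7.

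**Figure D3:**
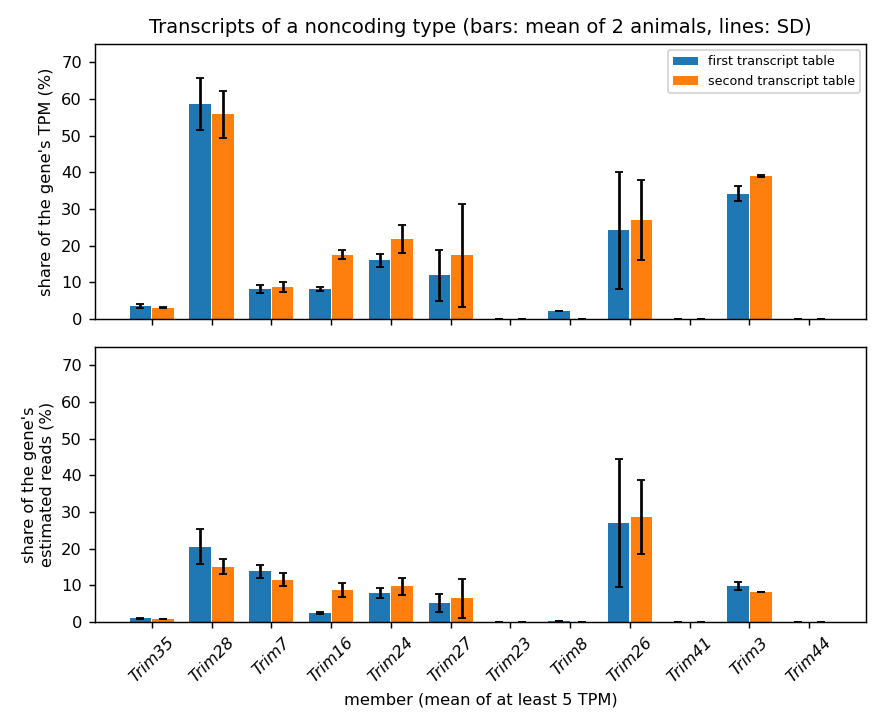
Share held by transcripts of a noncoding type in the 12 members at 5 TPM or more, as percent of the gene's TPM above and of its estimated reads below, for both transcript tables. Bars are means of 2 animals and lines are SD. Trim28 stands at 58.7% and 55.8% of TPM but at 20.5% and 15.1% of reads.

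No member differed between the animals by the criteria used, which were a mean expected count of 50 or more, a TPM ratio of 2-fold or more, and credibility intervals free of overlap. Of the 26 members with enough counts, 0 were past these criteria, against 2.2% of the 10933 protein-coding genes with enough counts. By the intervals alone 0 of the 26 members failed to overlap, against 19.0% of those protein-coding genes and 17.4% of those within the members' range of mean counts, 77 to 5646. The 29 members with a mean of 0.5 TPM or more had a median log2 ratio of -0.06, with 14 higher and 15 lower in replicate 2, against 0.01 over 11520 protein-coding genes. The median size of the ratio, regardless of sign, was 0.16 in members and 0.18 in protein-coding genes.

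**Figure D4:**
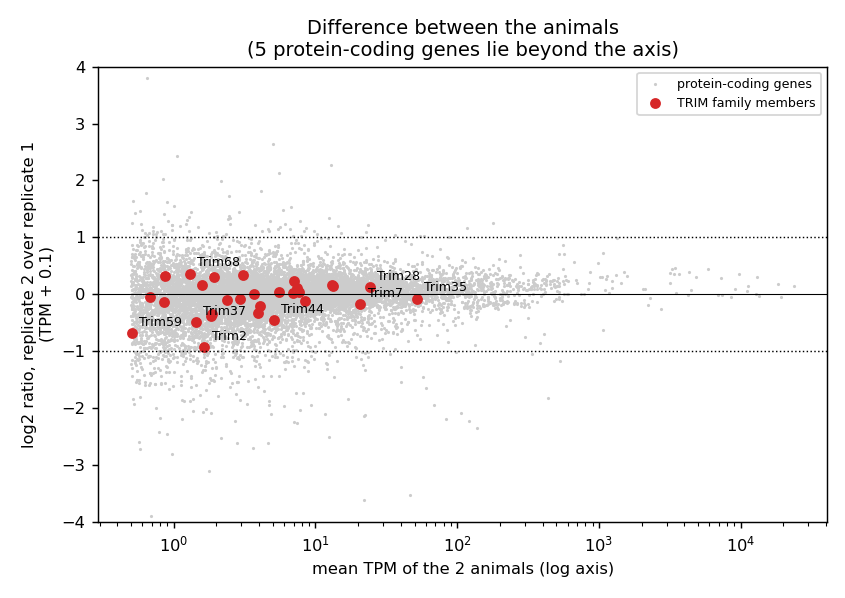
Log2 ratio of replicate 2 to replicate 1, from TPM + 0.1, against mean TPM on a log axis for protein-coding genes (grey) and members (red) with a mean of at least 0.5 TPM. Dotted lines mark 2-fold, and 5 protein-coding genes lie beyond the axis. All 29 members lie between the dotted lines, with Trim2 lowest at -0.93.

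Trim2 (chromosome 3, 84160439-84306877) had the largest ratio of these members, -0.93, with 2.19 TPM from 289 expected counts in replicate 1 and 1.10 TPM from 164 in replicate 2. Its credibility intervals ran from 2.10 to 3.68 and from 1.20 to 2.31 TPM, so they overlapped, and the TPM of replicate 2 was below its own interval. By posterior means Trim2 had 2.86 TPM in replicate 1 and 1.72 in replicate 2, a smaller ratio, with each value inside its interval. With 1 added to each TPM before the log, its log2 ratio was smaller in size, -0.60. After rescaling over nuclear protein-coding genes it was larger in size, -1.03. In the second transcript table its log2 ratio was -1.26, from 3.56 and 1.43 TPM. There Trim2 was the 1 member of 27 with enough counts past 2-fold, against 3.8% of 11126 protein-coding genes, with no interval to apply. The Schwann cell markers moved the same way, from a sum of 451.69 to 103.19 TPM, with none at 0. All 6 were lower in replicate 2, 5 of them past the criteria, with Mbp at 137.29 and 30.18 TPM and Sox10 at 1.22 and 0.74. All 5 fibroblast markers, 2 of them past the criteria, and all 5 macrophage markers were lower there as well. The red blood cell markers also summed lower, at 249.45 and 211.62 TPM. Other sums were higher in replicate 2. They were 26.69 and 46.48 TPM for adipocyte, 57.16 and 69.47 for endothelial, and 7.31 and 7.94 for satellite cell markers. The muscle fibre markers also summed higher there. The part of these cell types in the Trim2 value was not tested.

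The other members at 1 TPM or more had smaller ratios. Trim37 had -0.49 and Trim44 -0.45, and in the second transcript table these were -0.76 and -0.53. Trim32 and Trim39 went from -0.32 and -0.34 to -0.70 and -0.59. The highest positive ratios were 0.36 for Trim68 and 0.34 for Trim25, which became 0.14 and 0.09 on that other quantification. In the second table the median of protein-coding genes was itself -0.11. Of the 25 detected members, 6 changed sign between the tables, none with a log2 ratio larger than 0.23 in size in the gene table. Trim26 was the largest of these, at 0.23 and -0.12, so no direction can be read for it.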

How the data were processed

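Gene and transcript tables of 2 libraries of total RNA (1 group, n = 2) were used; both are mapped to replicates by the labels. The authors deposited expected counts (estimated reads), TPM, posterior mean TPM, FPKM and credibility bounds of TPM. Per the file headers and notes deposited beside them, these came from transcriptome alignments on mm10 with GENCODE M21, and the second transcript table with its estimated counts came from the reads. Aligner, quantifiers, versions, strand setting and interval level: not given in the sources used here. TPM sums to the same total in each library over all features listed, so a very abundant RNA lowers the rest.

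Members were taken from symbols and types in the identifiers. The members and lists were chosen with earlier results of these data known. Named were members at 5 TPM or more, the highest and lowest detected and largest ratio per carboxy-terminal list, close copies (80% protein identity or more), members whose quantifications differed by over 2-fold, and 3 on either side of the detection threshold (Trim65, Trim37 and Trim68 above, Trim12a, Trim12c and Trim21 below). Of each other list, the highest, lowest and largest ratio were named; further members were named after their values were seen. Single values of some listed genes are not reported here. The 2 COS-box entries Trim1 and Trim18 were not found. Coding sequences from M21 were translated and aligned with Biopython 1.88. The 50 members with promoters had 64 windows, and in 54 the last 40 bases lay in a transcript of the gene. Calculations used pandas 2.3.3 and numpy 2.4.6 in Python 3.11.15, and the criteria were tested on simulated data. Alternatives were the other table, rescaling over nuclear protein-coding genes, posterior means, FPKM, thresholds, pseudocounts and leaving out each animal. Intervals and floors cover counting and assignment only.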

Additional observations from a re-analysis of the deposited data

How the results depend on the processing

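The family's sum was 292 TPM in the second transcript table, 506 after rescaling over nuclear protein-coding genes and 216 by posterior means. In the second table the sums by list were 59.95 (PHD-bromodomain), 18.9 (NHL and filamin), 176 (PRY-SPRY), 36.6 (other carboxy-terminal part) and 25.5 TPM (interferon-linked). The top 5 members held 57.3% there and 56.7% by posterior means. With a threshold of 5 TPM, 11 members were detected, and under the other alternatives 22 to 28, with 28 in the second table. The shares of all protein-coding genes detected under these alternatives are not given here. The median log2 ratio turned to 0.0070 by posterior means and to 0.043 at a mean of at least 5 TPM, so it has no settled direction. In the second table, with no interval, 1 member (Trim2) was past 2-fold, and under the other alternatives, 1.5-fold and no count filter included, 0 were. Leaving out 1 animal gives the value of the other, which lies within the spread by construction and shows nothing on stability. The ratio of the second table to the gene table ran from 0.83 to 2.01 over the 25 detected members, with a median of 1.42 against 1.47 over protein-coding genes. No paired analysis was possible because the series has 1 group.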
